A study of Mus musculus with 308 samples.

Results

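The aldo-keto reductases described here are Akr1a1, Akr1b7, Akr1b8, Akr1c12, Akr1c13, Akr1c14 and Akr7a5, measured in mice dosed with fumaric acid esters. Members were found as array probe sets whose only gene symbol was 1 of these names, and 6 of the 7 genes had at least 1 such probe set, out of 17097 genes named in the same way. Akr1b7 had none and was not analysed here. The rule uses names and no measured value, but the members were chosen with earlier results of these data known.

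The samples were 308 single-colour arrays (Affymetrix HT MG-430 PM) of jejunum, kidney, brain, spleen, whole blood and of 2 lymph nodes, mesenteric and inguinal, from C57Bl/6 mice. Dosing was once a day for 10 days, by a route the labels do not state, and tissue was collected 12 h after the last dose. Vehicle mice got 0.8% hydroxypropyl methylcellulose. The treatments were dimethyl fumarate (DMF, the dimethyl ester of fumaric acid) at 100 mg/kg (DMF100) or 179.2 mg/kg (DMF179.2), mixed Ca, Mg and Zn salts of monoethyl fumarate (MEF, the monoethyl ester) at 79.2 mg/kg (MEF79.2), and DMF at 100 mg/kg together with those salts at 79.2 mg/kg (the combination). A group labelled Nav has no stated treatment and is described apart. Age and sex are not given in the labels. A tissue and group held 5 to 8 arrays, and this number limits the precision. The titles number the arrays, and the p-values measure the spread between these samples.

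Aldo-keto reductases use a nicotinamide cofactor to reduce aldehydes and ketones to alcohols, and several act on steroids, retinal or the reactive aldehydes left by lipid oxidation. Many of their genes belong to the programme of the transcription factor NRF2, which is held down by KEAP1 until electrophiles modify cysteines of KEAP1. NRF2 then binds antioxidant response elements in the DNA. DMF and its metabolites are electrophiles of that kind. The gut epithelium and the kidney tubule, which meet many foreign compounds, are known for high activity of such enzymes.

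All levels are deposited log2 values, so a difference of 1 is a doubling. Differences are means of a treated group minus vehicle in the same tissue, with the standard error from limma, a linear model fitted to every gene of the tissue. A gene was called changed at a Benjamini-Hochberg adjusted p under 0.05 over all 10378 to 10847 genes tested in that tissue. A gene was tested where its probe set was brighter than the 50th percentile of the tissue's values on 5 arrays or more. Of the members, 6 passed in jejunum and in kidney, 5 in mesenteric node and in spleen, 4 in blood and in inguinal node, and 2 in brain. Only Akr1a1 and Akr7a5 passed in all 7 tissues.

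The members lie on 3 chromosomes of assembly GRCm38.p6. Akr1b8 is at chr6:34354146-34368461, Akr1a1 at chr4:116636510-116651674 and Akr7a5 at chr4:139310720-139318786. Akr1c14 (chr13:4048991-4090560), Akr1c13 (chr13:4191168-4205604) and Akr1c12 (chr13:4268172-4279399) lie near each other, with gaps between them. The 250 bases before the start used by the RefSeq promoter table are shown for the 3 genes with the largest responses, because 2 of them are near copies. Capitals mark the longest run that Akr1c12 and Akr1c13 share, 75 bases beginning 152 and 155 bases before the respective starts.
Akr1b8: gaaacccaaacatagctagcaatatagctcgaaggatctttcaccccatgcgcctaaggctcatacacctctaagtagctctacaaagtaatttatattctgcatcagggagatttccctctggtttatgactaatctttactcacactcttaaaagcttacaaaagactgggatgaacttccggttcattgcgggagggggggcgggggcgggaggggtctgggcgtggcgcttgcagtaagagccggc
Akr1c12: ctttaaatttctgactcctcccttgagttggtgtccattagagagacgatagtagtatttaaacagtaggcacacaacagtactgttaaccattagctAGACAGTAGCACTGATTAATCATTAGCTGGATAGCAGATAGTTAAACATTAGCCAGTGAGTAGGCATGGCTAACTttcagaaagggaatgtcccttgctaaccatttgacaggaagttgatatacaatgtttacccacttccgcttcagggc
Akr1c13: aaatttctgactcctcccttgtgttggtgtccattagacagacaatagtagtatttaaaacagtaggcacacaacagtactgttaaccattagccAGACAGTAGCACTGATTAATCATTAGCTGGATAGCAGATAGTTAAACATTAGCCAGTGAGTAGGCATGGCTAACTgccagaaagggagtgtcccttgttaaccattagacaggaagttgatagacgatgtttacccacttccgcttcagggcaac
These are chr6:34353896-34354145 on the plus strand, chr13:4279400-4279649 on the minus strand and chr13:4190937-4191186 on the plus strand. The Akr1c12 and Akr1c13 windows matched at 235 bases (94% of the window) in a global alignment, and every other pair of the 7 genes matched at 46.8% to 57.6%. Akr1c12 and Akr1c13 are known as closely related paralogs, and their transcripts were not aligned here, so how far their probe sets tell them apart is uncertain. The chosen Akr1c12 probe set is also of a type that may read several transcripts. The antioxidant response element core, TGACNNNGC or its reverse complement GCNNNGTCA, was found on neither strand in the 300-base windows (250 before to 50 after the start) of any of the 7 genes. It occurred in 12.4% of 32851 promoters of the same length.

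In vehicle mice the members differed in where they were high. Levels across tissues are set side by side with the limit that tissues appear to have been normalized apart. Akr1c12 and Akr1c13, a pair of reductases of the hydroxysteroid dehydrogenase branch, were highest in jejunum, at 10.95 ± 0.24 (SD, n = 8) and 9.98 ± 0.40. Below jejunum, Akr1c12 followed in kidney (8.80), inguinal node (8.55), mesenteric node (8.55), spleen (8.21), blood (5.22) and brain (2.40), and the ranges of kidney, inguinal and mesenteric node overlapped in turn. Akr1c13 followed in spleen (8.41), kidney (8.40), mesenteric node (7.86), inguinal node (7.84), blood (5.60) and brain (2.52), with overlapping neighbours from spleen to inguinal node. Akr1c14, a 3α-hydroxysteroid dehydrogenase, was high in kidney (10.59) and jejunum (9.50), whose ranges overlapped, and low elsewhere (at most 4.95, in brain). Akr1a1, the aldehyde reductase that also reduces glucuronate on the way to ascorbate, was highest in kidney (13.64) and lowest in blood (10.88). Akr7a5, which reduces succinic semialdehyde and aflatoxin dialdehyde, ran from 10.34 in kidney to 7.42 in blood. Akr1b8, a reductase of retinal and lipid aldehydes, was highest in spleen (6.79), then kidney (5.83), jejunum (5.76), mesenteric node (5.36), inguinal node (5.17), brain (3.86) and blood (2.54). The Akr1b8 ranges of kidney, jejunum, mesenteric and inguinal node overlapped in turn.

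Over the 4 treatments and 7 tissues, 128 member tests gave 23 calls, 22 higher and 1 lower. Jejunum held 12 of the calls. There, 3 of the 6 tested members rose with DMF100, where 0.71% of all genes rose, 5 with DMF179.2 (15.6% of genes), 1 with MEF79.2 (0.083%) and 3 with the combination (2.21%). In kidney, 1 of 6 rose with DMF100 (4.51% of genes), 2 rose and 1 fell with DMF179.2 (10.6% rose and 6.09% fell), 1 rose with the combination (17.7%) and none was called with MEF79.2 (14.2% called either way). In mesenteric node 2 of 5 rose with DMF179.2 (6.15% of genes) and 3 with the combination (9.16%), and none was called with DMF100 or MEF79.2 (3.3%). In spleen 1 of 5 rose with DMF179.2 (16.9%) and none was called with the other 3 treatments (0.288%). Centring each array on its median moved the direction of the calls over all genes. With DMF179.2, 1688 of 2969 calls were higher in jejunum and 2206 of 3153 after centring, 1134 of 1786 and 1575 of 2032 in kidney, and 1778 of 2573 and 2279 of 2826 in spleen. With the combination they were 240 of 416 and 236 of 332 in jejunum, and with DMF100 483 of 866 and 592 of 871 in kidney. Beside the shares above, the spleen count and the kidney counts for MEF79.2 and the combination were near the background or under it. The jejunal counts for DMF100, MEF79.2 and the combination were well above it. Since the members were chosen with earlier results of these data known, these counts are not independent evidence about the family.

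**Figure D1:**
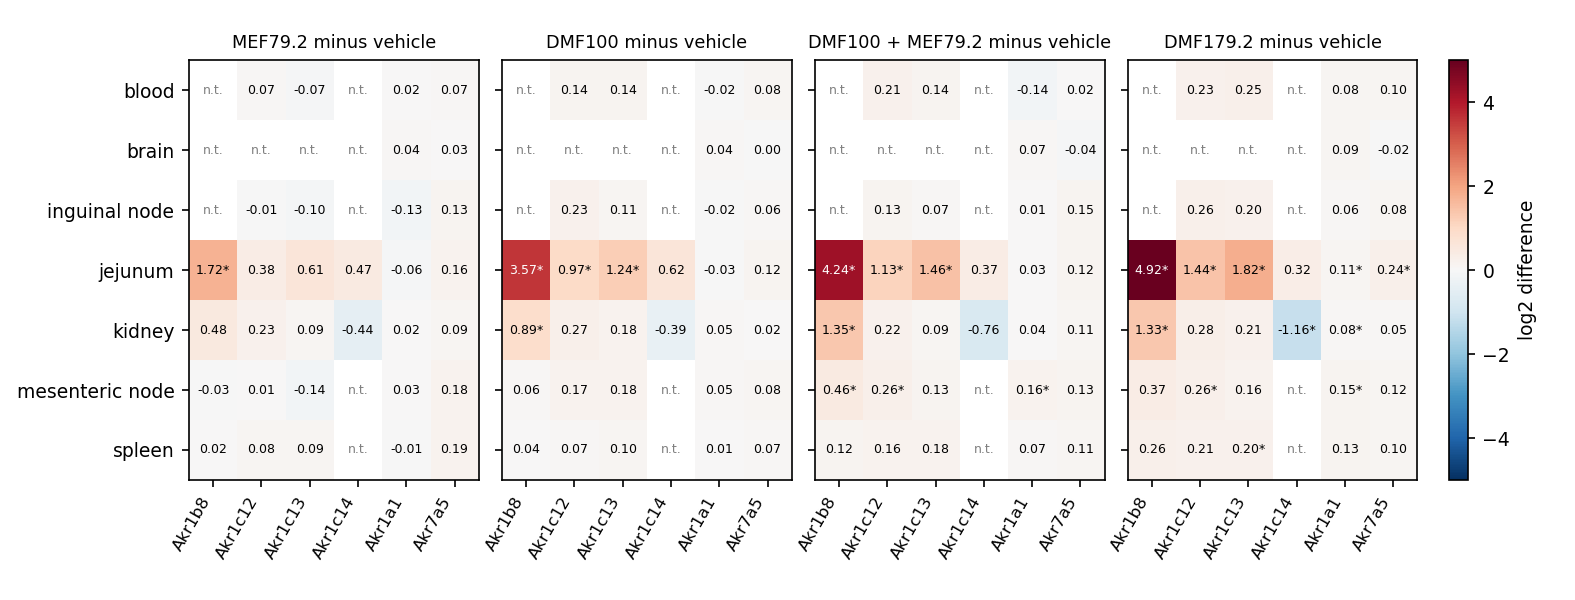
Difference from vehicle (log2) of the 6 measured members (columns) in 7 tissues (rows), with 1 panel for each of the 4 treatments. The number and the colour give the difference, * marks a called gene and n.t. a gene not tested in that tissue. Akr1b8 in jejunum holds the largest values, from 1.72 with MEF79.2 to 4.92 with DMF179.2, and blood, brain and inguinal node hold no called member.

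Akr1b8 gave the largest response of the set, and jejunum was where it was largest. Vehicle arrays of jejunum lay at 5.10, 5.80 and 6.16 (lowest, median and highest of 8). MEF79.2 arrays lay at 6.55, 7.56 and 7.99 (n = 7). DMF100 arrays lay at 8.69, 9.39 and 9.93 (n = 6). All MEF79.2 arrays were above all vehicle arrays, and all DMF100 arrays were above those. Combination arrays lay at 8.93, 9.97 and 10.61 (n = 8), and DMF179.2 arrays at 10.1, 10.69 and 11.05 (n = 7). The combination overlapped both DMF groups, while the DMF100 and DMF179.2 arrays did not overlap. Against vehicle, Akr1b8 rose by 3.57 ± 0.23 with DMF100 (11.8-fold, adjusted p = 1.42e-14), by 4.92 ± 0.22 with DMF179.2 (30.4-fold, adjusted p = 1.59e-20) and by 4.24 ± 0.21 with the combination (18.8-fold, adjusted p = 2.17e-18). With MEF79.2 it rose by 1.72 ± 0.22 (3.30-fold, adjusted p = 1.15e-05), 1 of 9 genes in jejunum that rose with that treatment. The hybridisation controls, spiked into every sample, were at 11.723 to 11.806 in jejunal vehicle arrays and lower in all arrays with DMF100 (11.548 to 11.67), DMF179.2 (11.497 to 11.693) and the combination (11.458 to 11.629). With their mean as a covariate Akr1b8 rose by 3.67, 5.05, 1.78 and 4.38 in the order DMF100, DMF179.2, MEF79.2 and combination. The calls of Akr1c12 and Akr1c13 were kept with it, and the jejunal Akr1a1 call with DMF179.2 was not (0.12, adjusted p = 0.179).

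In kidney the Akr1b8 vehicle arrays lay at 5.56, 5.93 and 6.07 (n = 7). DMF100 arrays lay at 6.40, 6.57 and 7.25, DMF179.2 arrays at 6.59, 7.08 and 8.14, and combination arrays at 6.17, 7.18 and 8.16 (n = 8 each). No array of these groups lay inside the vehicle range, and the 3 treated groups overlapped each other. The rises were 0.89 ± 0.20 (1.85-fold, adjusted p = 0.00242), 1.33 ± 0.20 (2.52-fold, adjusted p = 2.87e-06) and 1.35 ± 0.20 (2.55-fold, adjusted p = 1.76e-06). MEF79.2 arrays lay at 5.77, 6.30 and 6.72 (n = 7), 5 of 7 above the highest vehicle array, and the difference of 0.48 ± 0.20 was not called (adjusted p = 0.105). The kidney arrays carried the marks of kidney tubule, with the mean of 4 proximal tubule markers between 11.75 and 11.81 in each group. The mean of 6 hepatocyte markers was 8.33 in vehicle and 9.22 with DMF179.2, and its part in the result was not tested. All 6 were above the filter level in their mean over all kidney arrays.

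In mesenteric node Akr1b8 was called with the combination only, at 0.46 ± 0.14 (adjusted p = 0.0243). Vehicle arrays lay at 5.08, 5.42 and 5.48 and combination arrays at 5.35, 5.73 and 6.63 (n = 6), and 3 of the 6 were above the highest vehicle array. The DMF179.2 difference was 0.37 ± 0.13 (adjusted p = 0.0608). These levels were low: 13 of the 44 mesenteric arrays held the same Akr1b8 value, 5.48. In spleen the DMF179.2 difference was 0.26 ± 0.10 (adjusted p = 0.0635), with vehicle at 6.38, 6.82 and 7.18 and DMF179.2 at 6.71, 7.01 and 7.39. Akr1b8 did not pass the filter in blood, brain or inguinal node.

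**Figure D2:**
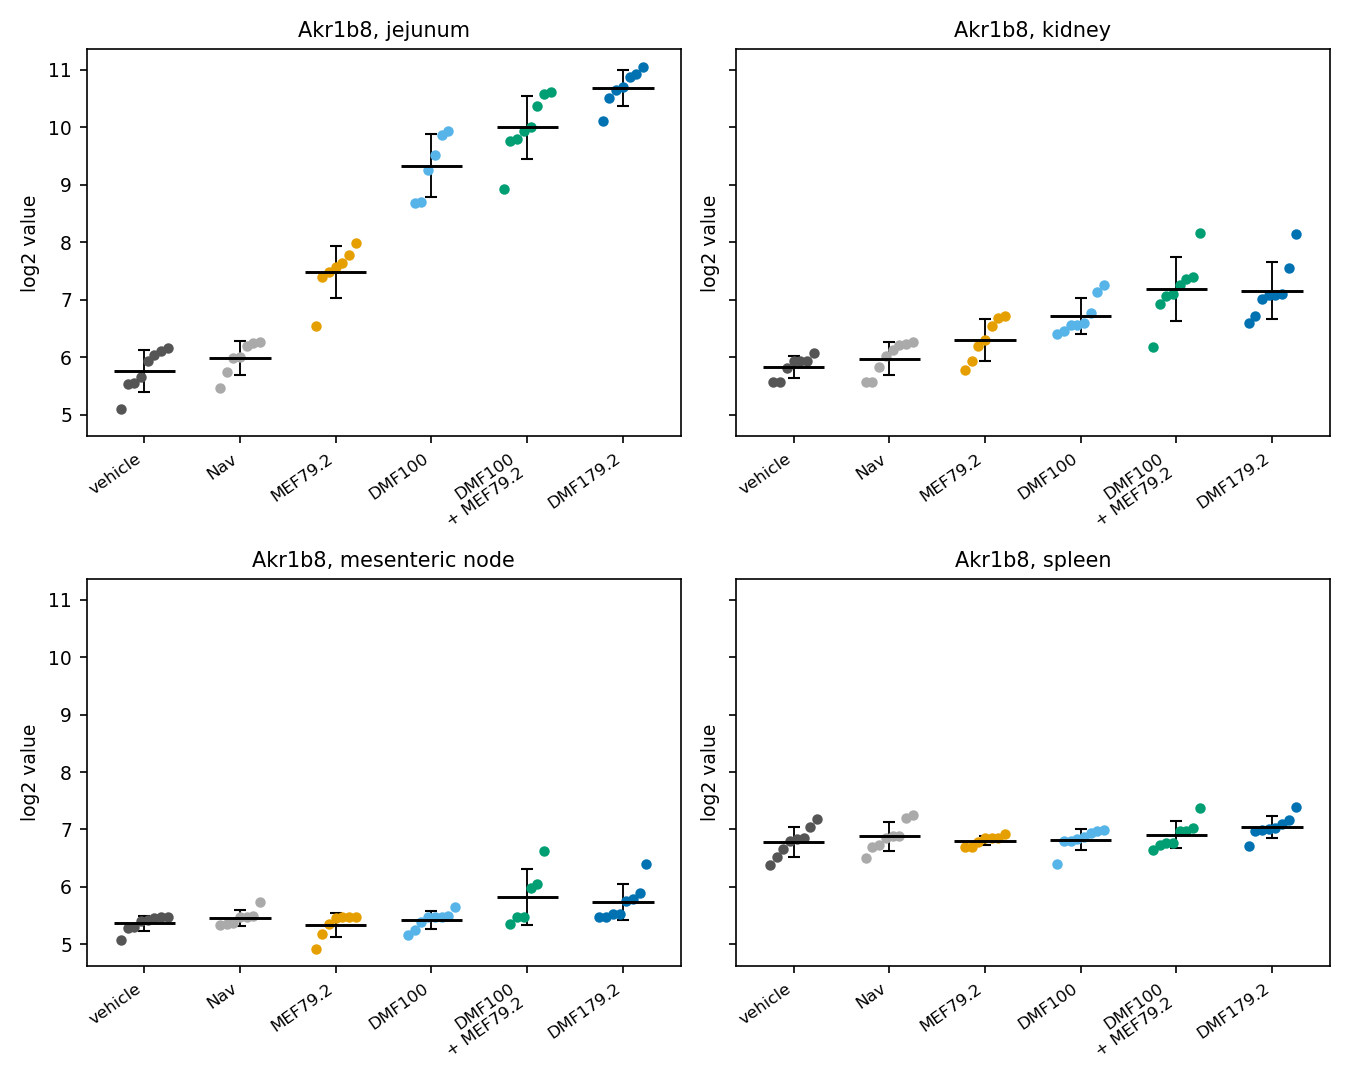
Akr1b8 level (log2 value, same vertical scale in each panel) in every array of jejunum, kidney, mesenteric node and spleen, by group. Points are arrays, the line is the group mean and the bar its SD. In jejunum the DMF179.2 arrays sit between 10.1 and 11.05, all above the DMF100 arrays, while in spleen every treated group overlaps vehicle.

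Akr1c12 and Akr1c13 rose in jejunum with both DMF doses and with the combination. Vehicle arrays of Akr1c13 lay at 9.47, 9.89 and 10.55, DMF100 arrays at 11.03, 11.23 and 11.47, combination arrays at 10.96, 11.40 and 11.86, and DMF179.2 arrays at 11.54, 11.83 and 12.08. Each of those 3 groups lay wholly above vehicle. The Akr1c13 rises were 1.24 ± 0.16 (2.37-fold, adjusted p = 1.22e-06), 1.46 ± 0.15 (2.75-fold, adjusted p = 2.62e-09) and 1.82 ± 0.15 (3.54-fold, adjusted p = 7.77e-12). For Akr1c12, vehicle arrays lay at 10.58, 11.01 and 11.29, DMF100 arrays at 11.73, 11.91 and 12.12, combination arrays at 11.67, 12.09 and 12.44, and DMF179.2 arrays at 12.17, 12.46 and 12.56. The pattern was that of Akr1c13, with no array of those groups inside the vehicle range. The Akr1c12 rises were 0.97 ± 0.13 (1.96-fold), 1.13 ± 0.12 (2.18-fold) and 1.44 ± 0.12 (2.72-fold). A second Akr1c12 probe set rose by 0.81, 0.91 and 1.24.

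With MEF79.2 the jejunal differences of this pair were not called. MEF79.2 arrays of Akr1c13 lay at 10.21, 10.65 and 10.88, 5 of 7 above the highest vehicle array, and the difference was 0.61 ± 0.15 (adjusted p = 0.128). For Akr1c12 it was 0.38 ± 0.12 (adjusted p = 0.181), with 4 of 7 arrays above the highest vehicle array. The unadjusted p-values were 0.000276 and 0.00326. Few genes rose with MEF79.2 in jejunum, and 1360 of 10847 genes had an unadjusted p under 0.05 there.

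**Figure D3:**
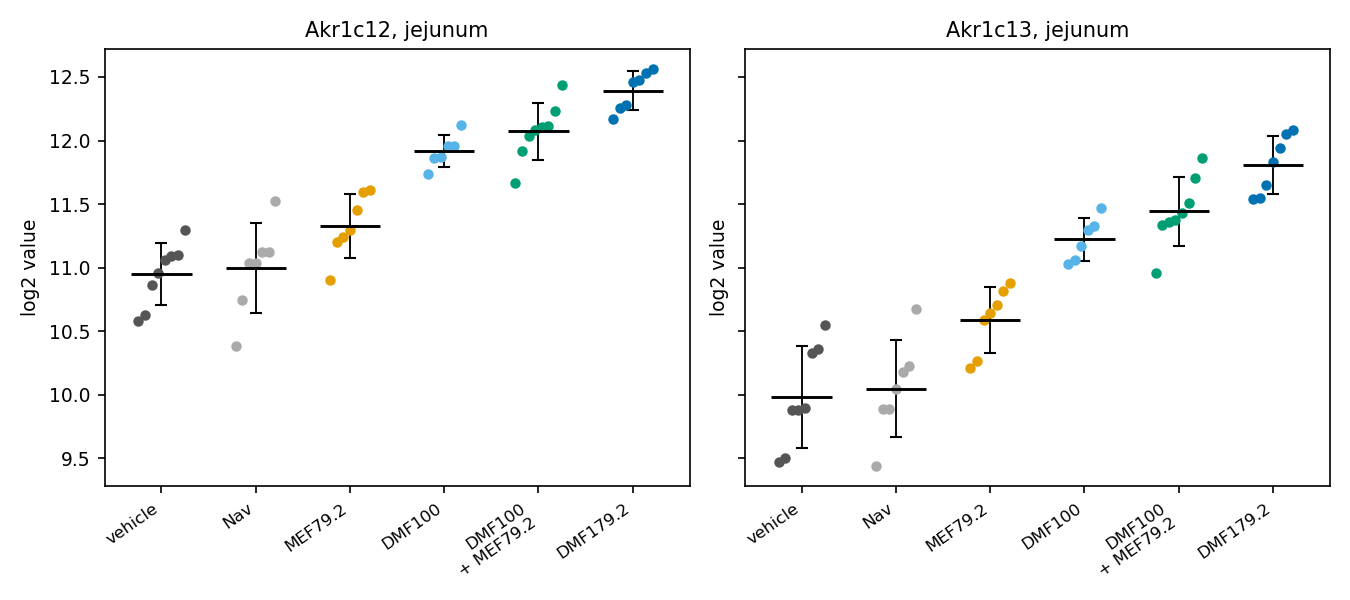
Akr1c12 and Akr1c13 levels (log2 value) in every jejunal array by group. Points are arrays, the line is the group mean and the bar its SD. For both genes the DMF100, combination and DMF179.2 arrays lie above every vehicle array, and the MEF79.2 arrays overlap vehicle.

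Outside jejunum the pair moved little. In kidney none of the 8 differences of Akr1c12 and Akr1c13 was called, and they ran from 0.09 to 0.28. The second Akr1c12 probe set was called there with DMF100 (0.35, adjusted p = 0.0272), DMF179.2 (0.30, adjusted p = 0.0393) and the combination (0.28, adjusted p = 0.0389), so the 2 probe sets differ in their calls. In mesenteric node Akr1c12 rose by 0.26 ± 0.07 with DMF179.2 (adjusted p = 0.0205) and by 0.26 ± 0.08 with the combination (adjusted p = 0.0244). Vehicle arrays there lay at 8.42, 8.55 and 8.65, DMF179.2 arrays at 8.69, 8.73 and 9.37 and combination arrays at 8.68, 8.82 and 8.94, without overlap. Akr1c13 was called in spleen with DMF179.2, at 0.20 ± 0.07 (adjusted p = 0.0297), and 6 of 8 arrays lay above the highest vehicle array (8.55). In spleen the mean of 5 red cell precursor markers was 7.81 ± 1.53 (SD) in vehicle and 9.76 ± 0.61 with DMF179.2. The 3′ minus 5′ difference of the RNA quality controls was 1.20 ± 0.07 in vehicle and 1.39 ± 0.11 with DMF179.2. The part of either in the result was not tested.

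Akr1c14, which reduces 3-ketosteroids, was the only member called lower, in kidney with DMF179.2. Vehicle arrays lay at 10.25, 10.63 and 10.78 (n = 7). The DMF179.2 group was split: replicates 23 and 24 were at 7.18 and 7.59 and the other 6 arrays between 9.76 and 10.45. The mean difference was -1.16 ± 0.31 (0.448-fold, adjusted p = 0.00777). Without those 2 arrays it was -0.48 ± 0.19 and no longer called (adjusted p = 0.0799). Fitted on the 2 groups alone it was not called either (adjusted p = 0.0995), and with array weights it was -0.70 (adjusted p = 0.0491). The other 3 treatments gave -0.39 (DMF100), -0.44 (MEF79.2) and -0.76 (combination, adjusted p = 0.0617). The same 2 arrays were low for the genes whose kidney pattern was most like it: Gbp3 was at 6.29 and 6.85 there against 8.35 to 9.13 in vehicle, Mpv17l at 10.26 and 10.59 against 11.69 to 12.09, and Serpina1f at 10.01 and 9.85 against 11.43 to 11.72. Over the 46 kidney arrays Pearson's r with Akr1c14 was 0.926, 0.915 and 0.892, and without the 2 arrays 0.869, 0.699 and 0.628. These genes were picked by r over all 46 arrays, the 2 low ones included. Their low values in those 2 arrays therefore follow in part from the choice. Replicates 23 and 24 had the lowest mean correlations with their group over all genes tested (0.989 and 0.988, against 0.992 to 0.993 in the other 6). They were also its highest arrays for Akr1c12 (9.51 and 9.53) and Akr1c13 (8.93 and 9.03). Replicate 23 had a proximal tubule marker mean of 11.67, the lowest of its group. Of 6 adrenal cortex markers, Cyp11b1, Hsd3b1 and Mc2r sat at the lowest value of the tissue in all vehicle arrays of kidney. Star (5.83), Cyp21a1 (6.08) and Cyp11a1 (4.39) were above it. The mean of the 6 lay between 3.78 and 3.84 in every group. In jejunum Akr1c14 was called with no treatment, with differences from 0.32 to 0.62 against a vehicle SD of 0.81. In mesenteric node and brain it lay under the filter. Tested without the filter, it was higher with DMF179.2 in both, by 0.64 ± 0.14 (adjusted p = 0.00874) and 0.49 ± 0.10 (adjusted p = 0.00953).

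**Figure D4:**
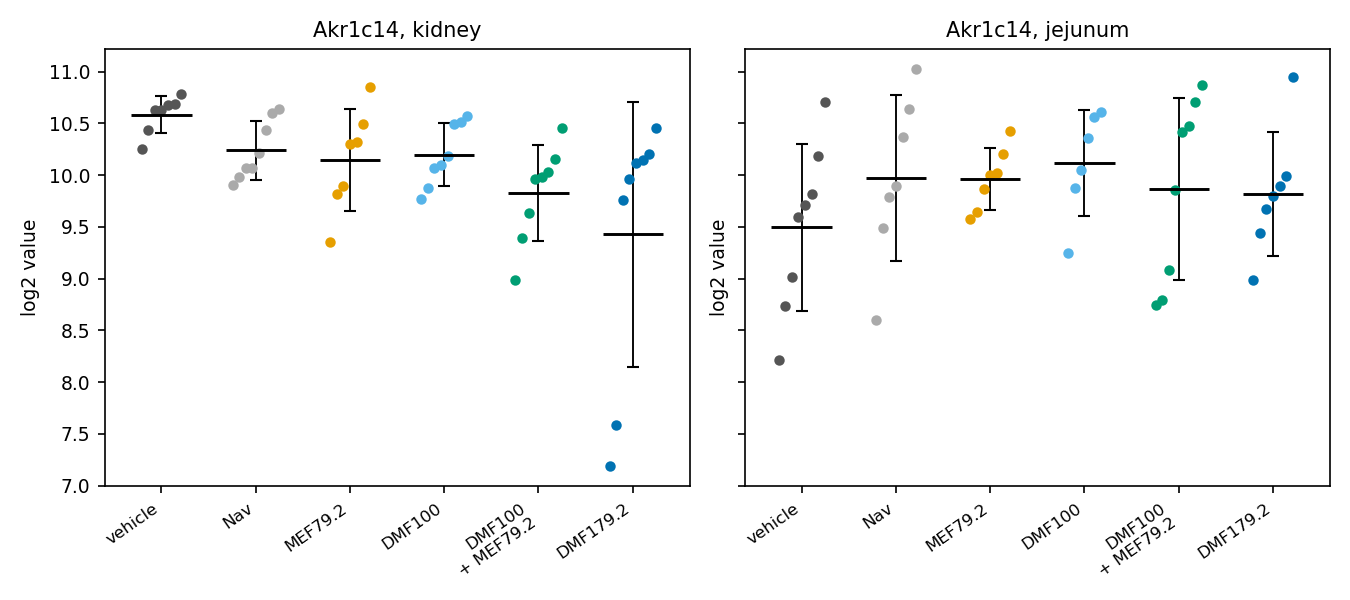
Akr1c14 level (log2 value) in every array of kidney and jejunum by group. Points are arrays, the line is the group mean and the bar its SD. In kidney 2 DMF179.2 arrays, at 7.18 and 7.59, lie far under the rest of their group, and in jejunum all groups overlap.

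Akr1a1 and Akr7a5, which were expressed in every tissue, changed by small amounts. In jejunum Akr1a1 arrays lay at 13.13, 13.30 and 13.38 in vehicle and at 13.33, 13.36 and 13.46 with DMF179.2, a rise of 0.11 ± 0.04 (adjusted p = 0.0335) with overlapping groups. In kidney the DMF179.2 rise was 0.08 ± 0.03 (adjusted p = 0.0444), with 4 of 8 arrays above the highest vehicle array. In mesenteric node Akr1a1 rose by 0.15 ± 0.05 with DMF179.2 (adjusted p = 0.036) and by 0.16 ± 0.05 with the combination (adjusted p = 0.0268). Its 3 probe sets disagreed in mesenteric node: the other 2 gave 0.08 and -0.25 with the combination, neither called. Akr7a5 rose once, in jejunum with DMF179.2, by 0.24 ± 0.07 (adjusted p = 0.0144). Its arrays lay at 9.08, 9.46 and 9.63 in vehicle and at 9.41, 9.69 and 9.91 with DMF179.2, and a second probe set gave 0.21 (adjusted p = 0.113). Most of the Akr1a1 calls depended on single arrays: leaving out 1 array ended the jejunal call for 6 of 43 arrays, the kidney call for 10 of 46, and the mesenteric calls for 7 (DMF179.2) and 5 (combination) of 44.

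The jejunal groups differed in the level of ileal marker genes. The mean of the ileal enterocyte genes Fabp6, Slc10a2 and Fgf15 was 9.07 ± 1.38 (SD) in vehicle, 8.002 ± 2.52 with DMF100, 7.51 ± 1.96 with MEF79.2, 6.91 ± 3.21 with the combination and 5.48 ± 2.50 with DMF179.2. All 3 of these genes were above the filter level (4.89) in their mean over all jejunal arrays. With DMF179.2 the Slc10a2 mean was 4.59, under that level, and single arrays reached 3.18 for Fabp6 and 2.70 for Fgf15. The mean of 4 enterocyte markers (Vil1, Fabp2, Alpi and Apoa4) was between 13.37 and 13.45 in every group. Sis and Lct, listed with them, were not named on the array. In bulk tissue, fewer cells of a type and less RNA per cell cannot be told apart. With the ileal mean as a covariate, a term added after the data were seen, Akr1b8 rose by 3.42 with DMF100, 4.44 with DMF179.2, 1.51 with MEF79.2 and 3.94 with the combination. The calls of Akr1c12 and Akr1c13 were kept too (Akr1c13: 1.19, 1.64 and 1.35 with DMF100, DMF179.2 and the combination). The calls of Akr1a1 (0.08, adjusted p = 0.181) and Akr7a5 (0.11, adjusted p = 0.275) were not. Within groups, r with the ileal mean over 43 arrays was -0.74 for Akr1b8, -0.62 for Akr7a5, -0.40 for Akr1c13 and -0.29 for Akr1c12. It was -0.28 for Akr1a1 and 0.49 for Akr1c14. Akr7a5 had an r of 0.78 with the 4 enterocyte markers. The DMF179.2 array with the highest ileal mean (10.59) had the group's lowest Akr1b8 level, 10.1. Beyond the covariate, the part of the ileal markers in the result was not tested.

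Markers of pancreatic acini were high in some lymphoid samples. The mean of 5 acinar genes (such as Prss2 and Cpa1) was above 5 in 8 of 44 mesenteric arrays, with at least 1 in every group but DMF100, and in 15 of 47 spleen arrays. Without these arrays, a split chosen after the data were seen, 1 of the 5 mesenteric calls was left: Akr1c12 with the combination (0.26, adjusted p = 0.0305). With all arrays, that call ended when replicate 36 alone was left out (adjusted p = 0.0646). The other 4 kept their sign, with adjusted p from 0.0592 to 0.118. In that fit 525 of 10671 genes were called either way with the combination and 367 with DMF179.2. In spleen 4 members were then called with DMF179.2, Akr1a1 (0.19), Akr1b8 (0.36), Akr1c12 (0.27) and Akr1c13 (0.21). Of all 10549 genes tested in spleen, 2934 were called either way in the same comparison. In mesenteric node Akr1b8 and B-cell markers ran opposite within groups (r = -0.54 over 44 arrays), as did Akr1c12 (r = -0.64). Akr1b8 ran with adipocyte markers (r = 0.60) and Akr1c12 with macrophage markers (r = 0.56). Adipocyte marker means were 9.92 in vehicle, 10.496 with DMF179.2 and 10.32 with the combination, and macrophage marker means 9.39, 9.58 and 9.60. B-cell marker means were 9.66 in vehicle, 9.42 with DMF179.2 and 9.51 with the combination. The part of these markers in the result was not tested.

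In blood, brain and inguinal node no member was called with any treatment or in the Nav group. Over all comparisons with vehicle in those tissues, 0.324%, 1.19% and 0.428% of gene tests were called. The differences lay between -0.14 and 0.25 in blood (4 members), between -0.04 and 0.09 in brain (2 members) and between -0.13 and 0.26 in inguinal node (4 members), treatments only. At an unadjusted p under 0.05 there were 0 of these in blood, 1 in brain (Akr1a1, 0.09 with DMF179.2) and 6 in inguinal node. The largest of those was Akr1c12 with DMF179.2, at 0.26 ± 0.07 (adjusted p = 0.0878). Many of all genes had an unadjusted p under 0.05 too. In blood they were 1046, 1651, 1149 and 775 of 10378, in the order DMF100, DMF179.2, MEF79.2 and combination. In the same order they were 789, 1670, 1926 and 1596 of 10763 in brain, and 1514, 1177, 1233 and 1089 of 10559 in inguinal node.

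The compounds were compared directly where the design allowed it. The DMF dose step, DMF179.2 minus DMF100, was called for 4 of the 6 members in jejunum, where 6.87% of genes were higher at the larger dose. Akr1b8 was higher by 1.36 ± 0.23 (95% interval 0.89 to 1.83, adjusted p = 0.00058), Akr1c13 by 0.58 ± 0.16 (adjusted p = 0.0186), Akr1c12 by 0.47 ± 0.13 (adjusted p = 0.0176) and Akr1a1 by 0.14 ± 0.04 (adjusted p = 0.0302). The DMF100 and DMF179.2 arrays did not overlap for Akr1b8, Akr1c13 and Akr1c12. How many of all genes were without overlap was not counted. With the ileal covariate the step was called for Akr1b8 (1.02, adjusted p = 0.00066) and no longer for Akr1c12 (0.40, adjusted p = 0.0539), Akr1c13 (0.45, adjusted p = 0.0653) or Akr1a1 (0.12, adjusted p = 0.0804). In the other 6 tissues no member was called, where 0.758% of gene tests were. In kidney the Akr1b8 step was 0.45 (95% interval 0.06 to 0.83, adjusted p = 0.245).

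Adding MEF salts to DMF at 100 mg/kg, the combination minus DMF100, called no member in any tissue, against 3.43% of gene tests. For Akr1b8 the difference was 0.67 in jejunum (95% interval 0.21 to 1.13, adjusted p = 0.238), 0.47 in kidney (0.08 to 0.85, adjusted p = 0.086) and 0.41 in mesenteric node (0.13 to 0.68, adjusted p = 0.0512). These intervals do not show that the 2 regimens act alike. At the same total dosed mass, in which the MEF part is the mass of its salts, DMF179.2 minus the combination called no member either (2.44% of gene tests). In jejunum Akr1b8 differed by 0.69 (95% interval 0.25 to 1.13, adjusted p = 0.273), Akr1c13 by 0.36 (0.06 to 0.67) and Akr1c12 by 0.32 (0.07 to 0.56). In that contrast no gene of 10847 was called by limma in jejunum and 1252 had an unadjusted p under 0.05. In kidney the Akr1b8 difference was -0.02 (-0.40 to 0.36). MEF79.2 and DMF100 were given at different doses, so their values stand side by side only: in jejunum Akr1b8 1.72 and 3.57, Akr1c13 0.61 and 1.24, and in kidney Akr1b8 0.48 and 0.89.

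**Figure D5:**
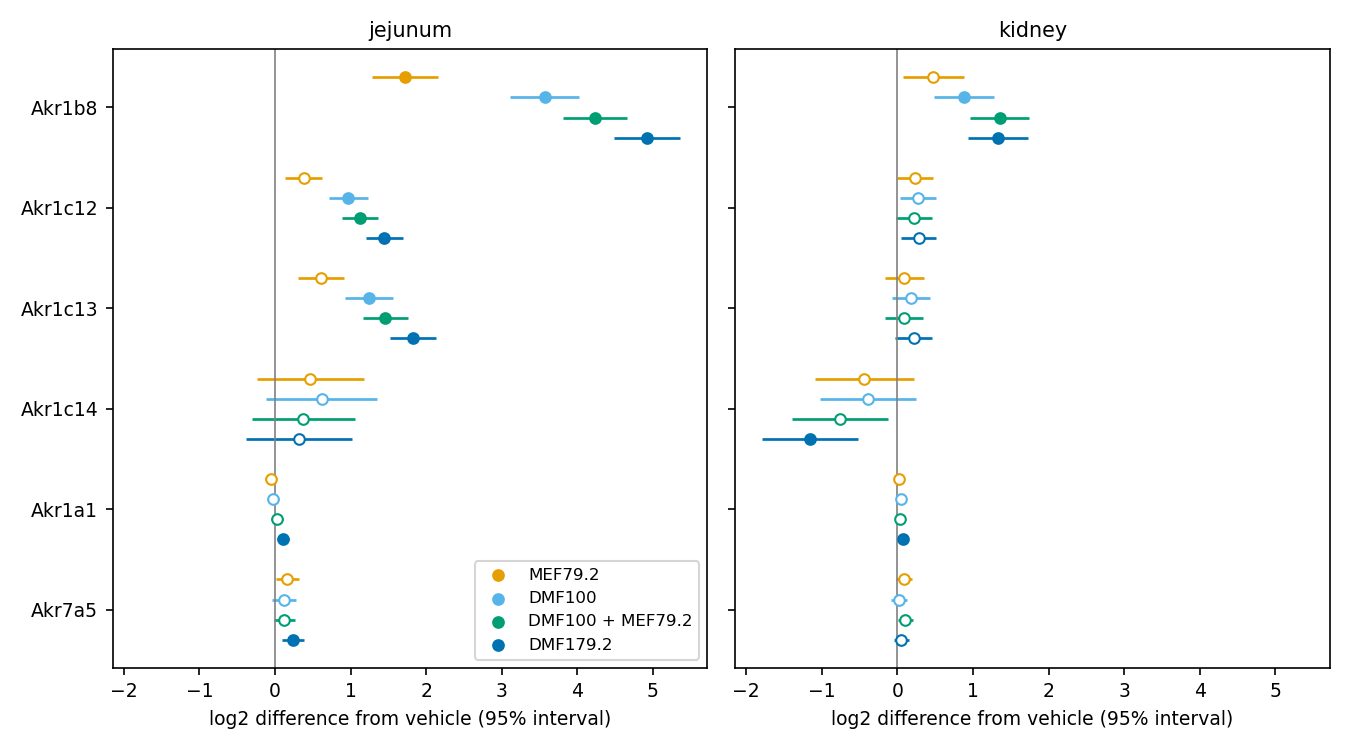
Log2 difference from vehicle with its 95% interval for the 6 members in jejunum and kidney, for the combination, the 2 DMF doses and MEF79.2. Filled points are called at an adjusted p under 0.05. The jejunal Akr1b8 points run from 1.72 to 4.92 and the kidney ones from 0.48 to 1.35.

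The responses of jejunum and kidney were tested against each other as the difference of the 2 tissue responses, over 9695 genes tested in both. It was called for 11 of 24 member tests. For Akr1b8 the jejunal response was larger by 2.68 with DMF100 (adjusted p = 5.2e-10), 3.59 with DMF179.2 (adjusted p = 3.53e-16), 1.25 with MEF79.2 (adjusted p = 0.0152) and 2.88 with the combination (adjusted p = 4.36e-12). Akr1c13 differed by 1.07, 1.61 and 1.37 and Akr1c12 by 0.70, 1.16 and 0.91 with DMF100, DMF179.2 and the combination. Akr1c14 differed with DMF179.2 by 1.48 (adjusted p = 0.0214) with the 2 low kidney arrays included. Of all genes, 0.774%, 18.1%, 2.03% and 14.2% were called in the DMF100, DMF179.2, MEF79.2 and combination versions of this test. Only Akr1a1 and Akr7a5 could be tested for a response that varied over all 7 tissues (an F test over 7849 genes). Of those 8 tests, 1 was called, Akr1a1 with the combination (adjusted p = 0.0402), where 16.1% of genes were. For DMF100, DMF179.2 and MEF79.2, 3.52%, 35.1% and 9.28% of genes were.

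The Nav group, whose meaning the labels do not give, was near vehicle for Akr1b8: 5.46, 6.00 and 6.26 in jejunum and 5.56, 6.07 and 6.26 in kidney. No member was called in jejunum, where 7.87% of genes were. Akr7a5 was higher than in vehicle in kidney (0.24 ± 0.05, adjusted p = 0.00011, without overlap), mesenteric node (0.29 ± 0.07, adjusted p = 0.000405) and spleen (0.20 ± 0.05, adjusted p = 0.0107). In kidney Akr1c12 was higher (0.29 ± 0.12, adjusted p = 0.0328) and Akr1a1 lower (-0.07 ± 0.03, adjusted p = 0.0459), and in mesenteric node Akr1a1 was higher (0.18 ± 0.05, adjusted p = 0.00145). Leaving out 1 array ended the kidney call of Akr1a1 for 10 of 46 arrays and that of Akr1c12 for 8. Over the alternatives the kidney Akr1a1 difference ran from -0.20 to -0.0035 (adjusted p up to 0.945). The kidney Akr1c12 call ended without a filter and with centred arrays (adjusted p up to 0.0724), and the spleen Akr7a5 call with averaged probe sets (adjusted p = 0.164) and without the arrays with pancreas markers (adjusted p = 0.0611). The background was large: 30% of genes were higher and 19.8% lower in kidney, 29.8% higher in mesenteric node and 8.07% higher in spleen (851 of 1411 calls, and 1386 of 1723 after centring). The hybridisation controls were at 11.79 in Nav and 11.55 in vehicle in kidney and at 11.65 and 11.44 in mesenteric node. Their mean as a covariate was among the alternatives run. Akr7a5 kept its Nav call under every alternative in kidney (0.16 to 0.28) and in mesenteric node (0.25 to 0.38). The kidney Akr1a1 call ended under 3 of 10 alternatives. Beyond that covariate, the part of the controls in the result was not tested. Another Akr1a1 probe set was lower in Nav in mesenteric node (-0.80, adjusted p = 7.55e-09), so its direction there depends on the probe set.

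Other genes of the pathway were read from a list of 46 NRF2 targets outside the family, 39 of them named on the array. Since the list was written with earlier results of these data known, it is not independent evidence of a direction. In jejunum 17 of 36 tested rose with DMF100, 30 with DMF179.2 (1 fell), 3 with MEF79.2 and 26 with the combination. Their median differences were 0.33, 0.62, 0.12 and 0.38, and those of all genes tested between -0.02 and 0.02. In kidney 26, 32, 22 and 28 of 38 rose, with medians of 0.30, 0.40, 0.31 and 0.43, and 1 fell with DMF179.2. With MEF79.2, 9 of all 10847 genes rose in jejunum and 937 of 10706 in kidney. Cbr3, a carbonyl reductase outside the family, rose by 3.69, 5.42 and 4.40 in jejunum with DMF100, DMF179.2 and the combination. In kidney it rose by 2.23, 2.63 and 2.69, and by 2.25 with MEF79.2. Nqo1, the quinone reductase, rose in jejunum by 1.45 with DMF100, 1.94 with DMF179.2, 0.67 with MEF79.2 and 1.58 with the combination. In mesenteric node 25 of 33 listed genes rose with DMF179.2 and 18 with the combination, led by Nqo1 (1.98 and 1.57), and in spleen 18 of 32 rose and 2 fell with DMF179.2. In brain 10 of 31, in blood 5 of 30 and in inguinal node 6 of 32 listed genes rose with DMF179.2, where 109 of 10763, 92 of 10378 and 39 of 10559 of all genes rose. Nqo1 was among them at 0.90, 0.84 and 1.35, in the tissues where no aldo-keto reductase of the set was called. Akr1b8 and Akr1c14 were not tested in those tissues, and in brain only Akr1a1 and Akr7a5 were. Without the filter, Akr1c14 was called in brain with DMF179.2 (0.49, adjusted p = 0.00953), and Akr1b8 was called in none of them.

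Of 14 further aldo-keto reductase genes, 11 were named on the array. Akr1c19, another gene of the steroid-reducing branch, rose in jejunum by 2.42 ± 0.27 with DMF100, 3.16 ± 0.26 with DMF179.2 and 2.65 ± 0.25 with the combination, and its MEF79.2 difference was 1.14 (adjusted p = 0.0697). In kidney it rose with all 4 treatments, by 0.75, 0.91, 0.45 and 0.68 in the order DMF100, DMF179.2, MEF79.2 and combination. Akr1d1, the Δ4-3-ketosteroid 5β-reductase, fell by 0.47 in kidney with the combination. Akr1e1 rose there by 0.12, and Akr1b10 fell by 0.15 with MEF79.2. None of the 4 tested in mesenteric node, spleen and inguinal node, 3 in blood or 6 in brain was called with a treatment. Among 7 regulators, 6 of them named, Nfe2l2, which encodes NRF2, was not called in jejunum (0.15 with DMF179.2) and fell in kidney by 0.22 with MEF79.2 and 0.23 with the combination. Nr1h4 rose in kidney by 0.18 with the combination. In jejunum Nr1i3 rose by 0.85 with the combination, and with DMF179.2 4 of 6 rose: the nuclear receptors Nr0b2 (1.55), Nr1i3 (1.32), Nr1i2 (0.48) and Nr1h3 (0.26).

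The genes most like each member in pattern were read by Pearson's r over the arrays of a tissue, which share the treatments and so rise together. In jejunum (43 arrays) Akr1b8 was most like Nqo1 (r = 0.983), Gstm1 (0.977) and Pir (0.970). Akr1c12 was most like Slc5a4b (0.960), Ces1g (0.956) and Ugt2b5 (0.954), and Akr1c13 like Slc5a4b (0.967), Ces1g (0.960) and Aldh1a1 (0.959). Akr1c12 and Akr1c13 had an r of 0.988 with each other. Akr7a5 was most like Sec14l2 (0.829), Treh and Srr, and Akr1a1 like BC004004 (0.898), Tcta and Mroh1. In kidney (46 arrays) Akr1b8 was most like the epoxide hydrolase Ephx1 (0.863), the NADPH-making G6pd2 (0.849) and Dap (0.835), and Akr1a1 like Rida (0.859), Fuca1 and Mettl7a1. Between Akr1b8 and Akr1c13, r was 0.941 in jejunum and 0.325 in kidney.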

How the data were processed

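The deposited table holds log2 values of 45141 probe sets in 308 arrays. The submitters' processing notes name RMA, GCRMA, R 2.11.1 and limma 3.4.5, with no role or order. Each tissue has its own lowest value, so tissues were fitted apart. Groups were taken from the sample titles, because another label gives DMF100 and the combination the same text. Kidney appears in the labels and not in the tissue panel of the design text.

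The gene table listed 29449 probe sets, 28898 with 1 symbol and 551 with several, and 15692 were not named. Each gene was represented by its brightest single-symbol probe set, by the mean of the 308 arrays. The members had 10 such probe sets, 3 for Akr1a1, 2 each for Akr1c12 and Akr7a5 and 1 for each other gene.

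With limma 3.58.1 (R 4.3.3, data.table package version 1.17.8), each tissue was fitted with 6 group means and moderated variances. Intervals are 95% intervals. The fit was tested on simulated data. Promoters came from RefSeq (GRCm38.p6) and were aligned with biopython 1.88, and figures were drawn with matplotlib 3.10.9, in Python 3.11.15 with pandas 2.3.3.

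The members and lists were chosen with earlier results of these data known. Named genes outside the set are, per list, tissue and treatment, up to 4 called genes with the smallest adjusted p, and the 3 genes most like a called member. Cell marker lists were averaged over their named genes. Replicate numbers are shared by tissues. Each number has the same treatment in every tissue. Over 866 pairs of same-numbered arrays, 495 had deviations correlated above 0.1, and the medians by pair of tissues ran from 0.032 to 0.264. Differently numbered arrays were not set beside them, so these values do not decide whether the numbers pair the arrays. The main tests across tissues treated the arrays as independent, which is a limit if equal numbers mean the same animal.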

Additional observations from a re-analysis of the deposited data

Results flagged for a closer look

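Of 72 groups of 4 to 10 arrays examined, 7 held an array far from the others by Dixon's test, and chance gives about 1 in 20 groups. Each is given as a log2 value. In jejunum, Akr1b8 was at 6.55 in MEF79.2 replicate 29, against 7.39 to 7.99 in the other 6 arrays. That array was still above every vehicle array. Akr7a5 was at 9.66 in DMF100 replicate 9, against 9.48 to 9.54 in the other 5.

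The other 5 lay in mesenteric node. DMF179.2 replicate 23 was at 9.37 for Akr1c12 (8.69 to 8.79 in the other 7) and at 6.40 for Akr1b8 (5.48 to 5.90). Its pancreas marker mean was 12.78, and it had the lowest mean correlation with its group (0.949). Vehicle replicate 3 was at 5.08 for Akr1b8 (5.29 to 5.48), with a pancreas marker mean of 11.69. Nav replicate 40 was at 5.74 for Akr1b8 (5.34 to 5.49), and it too was among the 8 arrays with that mean above 5. Nav replicate 47 was at 12.67 for Akr1a1 (12.36 to 12.48). The part of pancreatic RNA in these values was not tested.

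The response of jejunum minus that of kidney was called for 11 member tests by limma, all with the jejunal value higher. With DMF100 it was 2.68 for Akr1b8, 1.07 for Akr1c13 and 0.70 for Akr1c12. With DMF179.2 it was 3.59, 1.61 and 1.16 for the same genes and 1.48 for Akr1c14. With MEF79.2 it was 1.25 for Akr1b8, and with the combination 2.88 for Akr1b8, 1.37 for Akr1c13 and 0.91 for Akr1c12.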

How the results depend on the processing

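The jejunal count of 12 member calls, the 11 jejunum-kidney calls and the 6 Nav calls stayed within 1.5 times under each alternative run. The calls behind them changed in part. Between jejunum and kidney, array weights ended the Akr1c14 call with DMF179.2 (0.95, adjusted p = 0.0807) and added Akr1c13 with MEF79.2 (adjusted p = 0.0214), and averaged probe sets ended that of Akr1c12 with DMF100 (adjusted p = 0.0612). Leaving out 1 array gave 11 to 13 calls in jejunum, 4 to 6 in kidney, 2 to 6 in mesenteric node and 0 to 3 in spleen. The calls of Akr1b8, Akr1c12 and Akr1c13 in jejunum and of Akr1b8 and Akr1c14 in kidney were kept without any single array. In mesenteric node Akr1c12 lost its DMF179.2 call without replicate 23, and with the combination Akr1b8 lost its call without replicate 35 or 36 and Akr1c12 without replicate 36. In spleen the Akr1c13 call ended without DMF179.2 replicate 21 or 23 or vehicle replicate 4.

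The kidney count of 5 became 2 with a filter at the 70th percentile, where Akr1b8 is not tested, and 9 with the hybridisation controls as a covariate. The mesenteric count of 5 became 2 with the probe sets of each gene averaged, 3 with the 2 groups alone and 1 without the arrays with pancreas markers. The spleen count of 1 became 5 with centred arrays, 2 with robust variances, 3 with array weights, 2 with mean probe sets, 4 with the hybridisation covariate, 2 with the 2 groups alone and 4 without the arrays with pancreas markers. Brain went from 0 to 1 without a filter (Akr1c14 with DMF179.2, 0.49 ± 0.10) and inguinal node from 0 to 3 with array weights. The dose step went from 4 to 1 with the ileal covariate, and the combination against DMF100 from 0 to 3 with array weights and 1 with the hybridisation covariate. The 7-tissue test went from 1 to 0 with centred arrays or mean probe sets and to 2 with array weights. The mean of its probe sets reversed Akr1a1 in mesenteric node, to -0.0018 with the combination and -0.25 in Nav. Apart from the settings whose construction shows it, the cause was not tested.

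The replicate block (replicate number as a random block, consensus correlation 0.116) gave the same 11 jejunum-kidney calls, with 3.61 for Akr1b8 at DMF179.2, and the same single call in the 7-tissue test, the only tests it was run on. The numbers were not established as pairing the arrays.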
